A study of Mus musculus with 6 samples.

Results

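Expression of 42 genes that mark or serve macrophages was followed in cultures of mouse embryonic fibroblasts that received reprogramming factors. They were chosen with earlier results of these data known. The genes were taken by name: the growth factor gene Csf1, 19 surface, endosomal and lysosomal membrane receptors, the 3 chains of complement C1q, 5 Fc receptor genes and signalling subunits, 3 genes of the phagocyte oxidase, 4 lysosomal or antimicrobial effectors, 6 genes of the haematopoietic cytoskeleton and its adaptors, and the transcription factor gene Spi1. All 42 have a probe set that names them alone, out of 18193 genes on the array, and each was read by the one with the highest mean. Of the 42, 38 passed the filter on low values (a mean log2(intensity + 16) above 5.63, an intensity of about 33.5) and were tested among 12622 genes. The other 4, Spi1, Hcls1, Lcp2 and Dock2, had means under it.

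The cells were embryonic fibroblasts of the B6CBAF1/J strain that carried SOX2 and KLF4 together with OCT4 (5R), the combination O(5R)SK, or with OCT4 (WT), the combination O(WT)SK, and were harvested on days 3, 5 and 7. The labels do not spell out 5R. Each combination and day has 1 Affymetrix array, 6 in all, and both combinations were kept in medium for embryonic stem cells, with 15% fetal bovine serum and LIF. Cells without the factors were not analysed here, and nothing says whether arrays came from separate cultures. With 1 array for each combination and day, scatter between replicates was not measured. The p-values of the fit with combination and day as terms rest on how far the combinations part in their course over the days. A real difference in course is thus counted as error, and some or all of the scatter may be technical. The prior in limma also draws on the variance of all genes tested.

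Macrophages are phagocytes of the blood lineage that settle in most tissues, the embryo included, and fibroblast cultures made from whole tissue can carry some along. They depend on the cytokine CSF1, which fibroblasts secrete and which binds the receptor CSF1R on the macrophage. A second ligand of that receptor is IL-34. Their identity rests on the transcription factor PU.1, encoded by Spi1, and they are known by receptors that bind microbes, dead cells, antibodies and lipids, by complement C1q, and by an oxidase that makes superoxide in the phagosome.

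The arrays were scaled by the authors to the same trimmed mean, 500, and their log2 values correlated pairwise at 0.974 to 0.982 across probe sets, which are not independent of each other. The highest intensity was 34285 for O(5R)SK on day 7 and between 40353 and 47606 elsewhere. Fibroblast genes were present on every array: all 11 listed ones on the array passed the filter and their summed intensity was 90499, 81636 and 76855 with O(5R)SK and 97136, 94386 and 101858 with O(WT)SK. Of these, Thy1 (-0.71) and Postn (-0.65) fell by day 7 (adjusted p = 0.0239 and 0.0339 in limma) and 0 rose, with a list median of -0.019. Among all tested genes 3.68% fell and 6.52% rose.

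From day 3 to day 7 more than 50% of the tested macrophage genes fell and 0 rose. In limma, fitted to all 6 arrays with combination and day as terms, 21 of the 38 tested members passed an adjusted p of 0.05 as lower on day 7, which is 55.3% of them, where 3.68% of all tested genes did. None passed as higher, where 6.52% of all genes did. The members were chosen with earlier results of these data known, so these shares describe the list and do not test it. The median difference of the 38 was -0.95 on the log2 scale, beside 0.029 over all genes tested, and was -1.01 in O(5R)SK and -0.88 in O(WT)SK taken alone. Of the 21 that fell, 20 kept between 18.3% (Clec4d) and 65.3% (C1qc) of their day 3 level, on the scale of intensity + 16. For the last, Marco, both day 7 values lie under the filter intensity and give no such share. Both day 7 arrays lay below both day 3 arrays for 33 of 38 members, against 26.2% of all genes, and above them for 1 member, Ctsc, against 31.5%. With 2 residual degrees of freedom these calls need every array of days 3 and 7. Without any one of these 4 arrays, which leaves 1 array for that day, all 21 calls were lost. The median difference was then between -1.05 and -0.82. Without the filter on low values limma also called 0 members and 0 genes. At an unadjusted p under 0.05 in limma then stood 29 of 42 members and 3648 of 18193 genes. The arrays hold RNA of the whole culture, so fewer macrophages and less of these transcripts per macrophage cannot be told apart. The cells that made these transcripts were not identified.

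**Figure D1:**
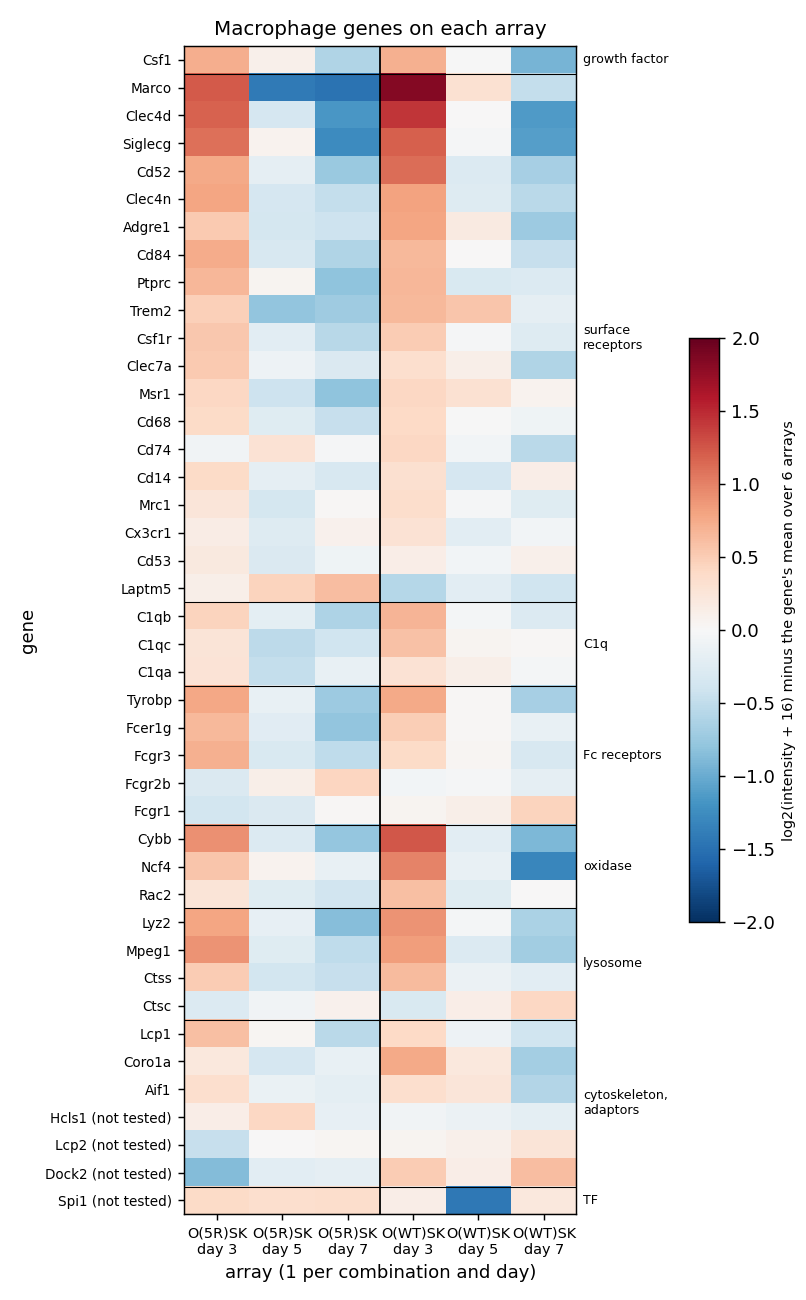
Each row is 1 of the 42 genes, ordered by role, and each column 1 array, O(5R)SK on the left and O(WT)SK on the right, with the days running low to high. Colour gives log2(intensity + 16) minus the gene's mean over the 6 arrays. Most rows pass from red on day 3 to blue on day 7 in both combinations. Exceptions among the tested genes include Ctsc, Laptm5, Fcgr1, Fcgr2b and, in O(5R)SK, Cd74. Of the untested genes, Lcp2 and Dock2 are higher on day 7 than on day 3 in both combinations, and Spi1 differs little.

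The growth factor itself was among the genes that fell. Csf1, which encodes the cytokine that keeps macrophages alive and dividing, read 8772, 5639 and 3456 with O(5R)SK and 8615, 5251 and 2763 with O(WT)SK over days 3, 5 and 7. Its level on day 7 was thus about 35.7% of that on day 3 (limma difference -1.49, SE 0.12, adjusted p = 0.0113), with the highest day 7 array far below the lowest day 3 array. All 4 probe sets of Csf1 were lower on day 7, by -1.67 to -1.06. Its receptor gene Csf1r read 845, 495 and 384 with O(5R)SK and 819, 562 and 478 with O(WT)SK (limma difference -0.93, SE 0.12, adjusted p = 0.0233). Both day 7 arrays of Csf1r lay below both day 3 arrays, as for 26.2% of all genes. The probe sets of Csf1r do not move alike: 3 lie above the filter and their differences run from -0.93 for the brightest to 0.10, and the mean of its probe sets gave -0.49 with an adjusted p of 0.0632 in limma.

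The other genes of this cytokine system were split. Il34, the second CSF1R ligand gene, rose over the same days and read 84.8, 192 and 288 with O(5R)SK and 77.3, 117 and 186 with O(WT)SK (limma difference 1.35, SE 0.17, adjusted p = 0.02). Csf2rb, which encodes the beta chain shared by the receptors for GM-CSF, IL-3 and IL-5, fell and read 137, 63.2 and 52.1 with O(5R)SK and 127, 69.2 and 67 with O(WT)SK (difference -0.97, adjusted p = 0.023 in limma). Of 7 genes in this list, 4 passed the filter, 1 rose and 1 fell, where 6.52% of all tested genes rose and 3.68% fell. Csf2, Csf3 and Csf3r were too dim to test, and Csf2ra read 0.56 without passing (adjusted p = 0.264 in limma).

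**Figure D2:**
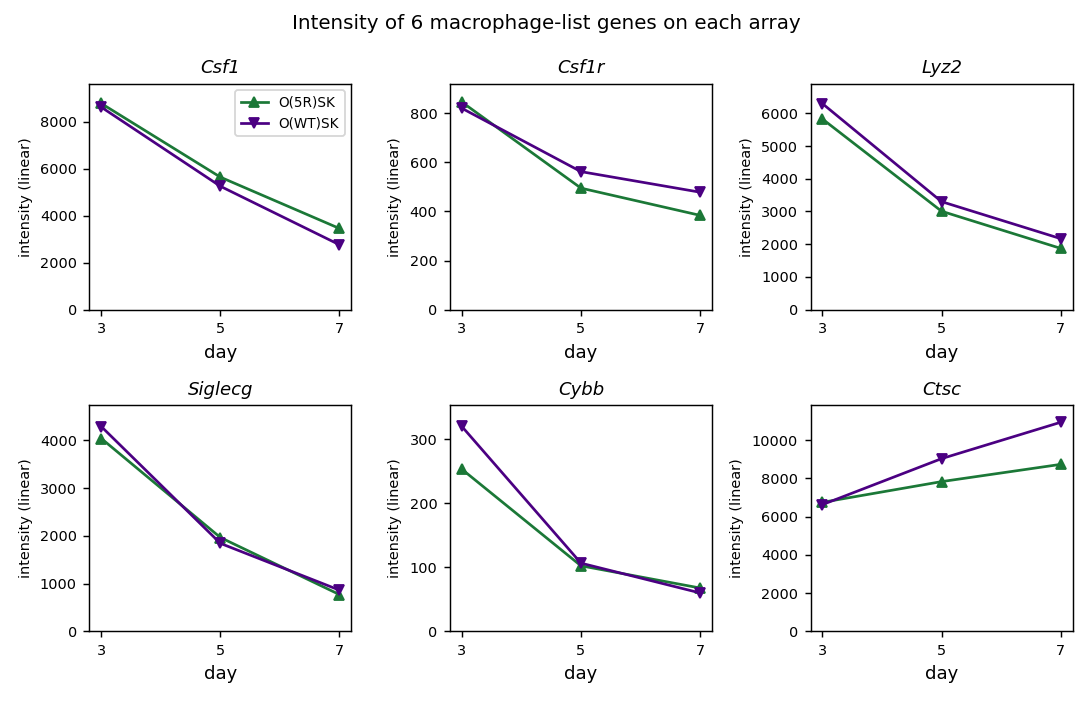
Linear intensity (y axis, from 0) against day (x axis) for Csf1, Csf1r, Lyz2, Siglecg, Cybb and Ctsc, with 1 array at each point, O(5R)SK as upward and O(WT)SK as downward triangles. The first 5 are lower at each step in both combinations, and Ctsc is higher at each step.

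Among the 19 receptors 11 fell and 0 rose, where 3.68% of all tested genes fell and 6.52% rose. The largest differences belonged to receptors for microbial surfaces and for sialic acid. Marco, a scavenger receptor that binds bacteria, read 103, 3.04 and 2.15 with O(5R)SK and 164, 46.4 and 20.5 with O(WT)SK over days 3, 5 and 7 (limma difference -2.50, SE 0.28, adjusted p = 0.0176). Its day 7 values are below the filter intensity, so that its fold depends on the pseudocount, and with 64 in place of 16 the difference was -1.38. Under the stricter filter and with the mean of probe sets Marco was too dim to test. Clec4d, a C-type lectin receptor for mycobacterial glycolipid, read 484, 160.3 and 83.3 with O(5R)SK and 579.7, 207 and 85 with O(WT)SK (limma difference -2.45, SE 0.12, adjusted p = 0.00765). Siglecg, an inhibitory lectin for sialic acid that is best known from B cells, read 4040.0, 1967 and 772 with O(5R)SK and 4289.7, 1844 and 865 with O(WT)SK, 5.01-fold lower on day 7 (limma difference -2.33, SE 0.11, adjusted p = 0.00765). For Clec4d and Siglecg the day 7 arrays lie far below the day 3 arrays in both combinations, with day 5 between them.

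Clec4n, which encodes Dectin-2, a receptor for fungal mannans, read 326, 141 and 127 with O(5R)SK and 330.3, 149 and 119.6 with O(WT)SK (limma difference -1.31, SE 0.099, adjusted p = 0.0106). Clec7a, which encodes the beta-glucan receptor Dectin-1, was dim, at 75.3, 43.3 and 36.1 with O(5R)SK and 63.7, 53 and 25.6 with O(WT)SK (limma difference -0.87, SE 0.16, adjusted p = 0.0434). The values of Clec7a lie close to the filter intensity, and it missed the threshold with a trended, robust prior in limma.

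A further 5 receptor genes passed the test. Ptprc, which encodes CD45, the phosphatase on all white blood cells, read 225, 142 and 70.9 with O(5R)SK and 226, 108 and 109 with O(WT)SK (limma difference -1.21, SE 0.23, adjusted p = 0.0441). Its call was lost after quantile normalization, and with the mean of its probe sets, where the difference was -0.25 (adjusted p = 0.428 in limma). Adgre1, which encodes F4/80, the antigen most used to stain mouse macrophages, read 315, 163 and 155 with O(5R)SK and 382, 243 and 123 with O(WT)SK (limma difference -1.23, SE 0.22, adjusted p = 0.0403). Cd52, a small leukocyte surface glycoprotein, read 372, 187 and 122 with O(5R)SK and 487, 174 and 129 with O(WT)SK (limma difference -1.64, SE 0.14, adjusted p = 0.0121). Cd84, an adhesion receptor of the SLAM family, read 166, 71 and 55.6 with O(5R)SK and 154, 93.1 and 63.2 with O(WT)SK (limma difference -1.23, SE 0.14, adjusted p = 0.0175). Cd68, which encodes a lysosomal sialomucin of macrophages, read 445, 281 and 240.3 with O(5R)SK and 451, 336 and 317 with O(WT)SK (limma difference -0.67, SE 0.13, adjusted p = 0.045), a call that was lost after quantile normalization and without either day 5 array. In each of the 5, the highest day 7 array was below the lowest day 3 array, as in 26.2% of all genes.

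The remaining 8 receptors did not pass. Trem2, a lipid receptor, read 64.3, 17.5 and 19.2 with O(5R)SK and 74.1, 68.7 and 34.7 with O(WT)SK (difference -1.01, adjusted p = 0.105 in limma). Msr1, a scavenger receptor for modified lipoprotein, read 141, 72.5 and 51.6 with O(5R)SK and 139.9, 129.8 and 107 with O(WT)SK (difference -0.78, adjusted p = 0.114). In Msr1 the change was -1.21 in O(5R)SK and -0.34 in O(WT)SK. Cd14, a coreceptor for lipopolysaccharide, the mannose receptor gene Mrc1, the fractalkine receptor gene Cx3cr1 and the tetraspanin gene Cd53 had differences of -0.45, -0.41, -0.20 and -0.15, with adjusted p-values of 0.18 to 0.452 in limma. These 4 were lowest on day 5 in the average of the combinations, so the day 5 difference from day 3 was larger than that of day 7. Cd74, the invariant chain of MHC class II, read 57, 77.6 and 59.6 with O(5R)SK and 86.8, 57.7 and 36.6 with O(WT)SK, where the combinations moved apart (0.052 in O(5R)SK, -0.97 in O(WT)SK).

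Laptm5, a lysosomal membrane protein of blood cells, stood on the other side and read 548, 687 and 775 with O(5R)SK and 332, 429 and 377 with O(WT)SK (difference 0.33, adjusted p = 0.172 in limma). All 4 of its probe sets above the filter were positive, between 0.33 and 0.81. The name of the one used ends in _x_at, which in Affymetrix naming marks a set whose probes may also match other transcripts.

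**Figure D3:**
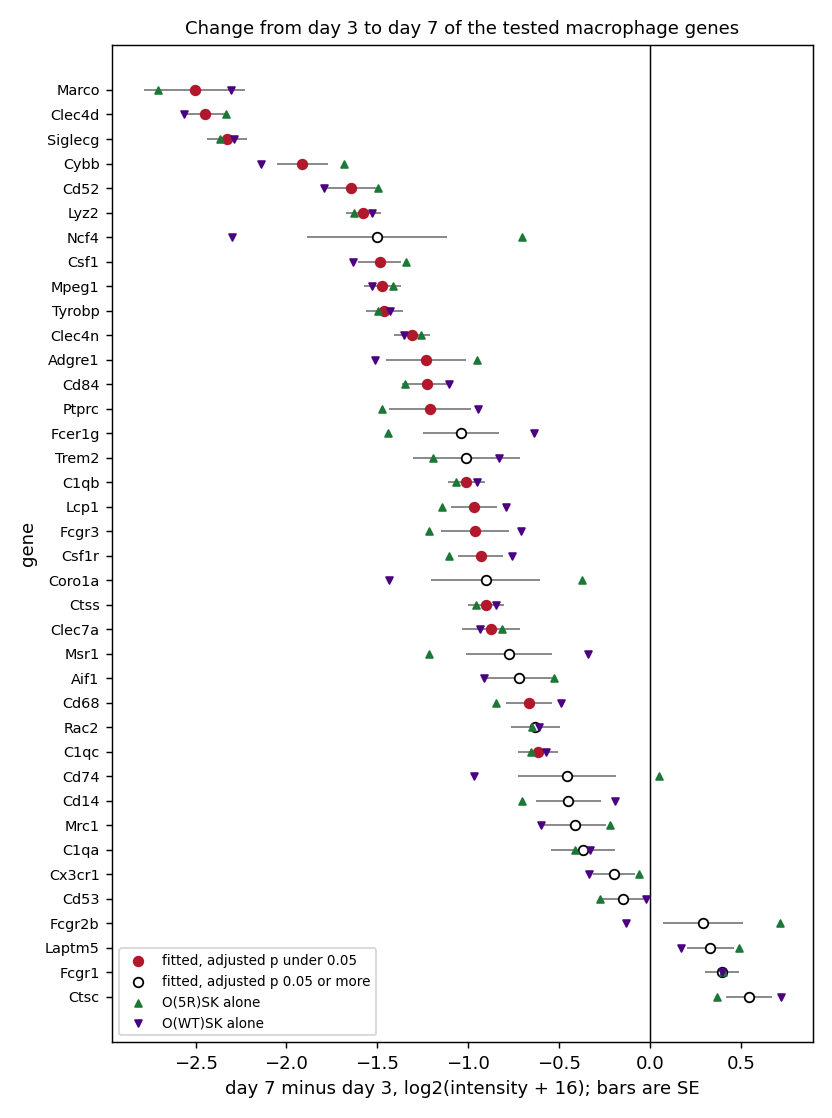
Day 7 minus day 3 in log2(intensity + 16) for the 38 tested genes, ordered by size. Circles with SE bars are the fit over both combinations, filled where the adjusted p is under 0.05, and triangles are O(5R)SK and O(WT)SK alone, with 1 array a side. Values run from -2.50 for Marco to 0.55 for Ctsc, and the triangles lie widest apart for Ncf4, Coro1a and Cd74.

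The 3 chains of C1q, the recognition molecule of the classical complement pathway that macrophages secrete, were lower to unequal degrees. C1qb read 517, 325 and 238 with O(5R)SK and 608, 363 and 306 with O(WT)SK (limma difference -1.01, SE 0.10, adjusted p = 0.015), and the mean of its 3 probe sets gave -0.67 with an adjusted p of 0.0664. C1qc read 246, 136 and 150.5 with O(5R)SK and 315, 213 and 206 with O(WT)SK (limma difference -0.61, SE 0.11, adjusted p = 0.0414), a call lost without either day 5 array. C1qa read 371, 214 and 275 with O(5R)SK and 375, 335 and 296 with O(WT)SK and did not pass (difference -0.37, adjusted p = 0.236 in limma). On all 3, day 7 lay below day 3 without overlap, as it did for 26.2% of all genes. C1qa and C1qc read lower on day 5 than on day 7 in O(5R)SK.

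Complement genes outside C1q mostly went the other way. Of 13 listed, 9 are matched on the array and 8 were tested, of which 4 rose and 0 fell, with a median of 0.99. Among all tested genes 6.52% rose and 3.68% fell. Of the 8, 7 had positive differences and 1, Cd46, was lower without passing (-0.63, adjusted p = 0.106 in limma). The proteases that bind C1q to form the C1 complex are encoded by C1ra and C1s1, and C1s1 read 451, 738 and 1604 with O(5R)SK and 298, 663 and 1371 with O(WT)SK (limma difference 1.97, SE 0.14, adjusted p = 0.00915). C1ra had a difference of 1.78, Cd55, which encodes an inhibitor of the complement convertases, 1.61, and Serping1, which encodes the inhibitor of C1r and C1s, 1.55, with adjusted p-values of 0.00874, 0.00765 and 0.00915 in limma. The genes of C1q and of its proteases, parts of the same complex in blood, thus differed in direction over these days.

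Of the 5 Fc receptor and signalling genes, Tyrobp and Fcgr3 fell and 0 rose, where 3.68% of all tested genes fell and 6.52% rose. Tyrobp, which encodes DAP12, the adaptor through which TREM2 and related receptors signal, read 766, 398 and 261 with O(5R)SK and 762, 449.7 and 273 with O(WT)SK (limma difference -1.46, SE 0.10, adjusted p = 0.00881). Fcer1g, the common signalling chain of activating Fc receptors, read 484, 255 and 168 with O(5R)SK and 430.0, 306 and 271 with O(WT)SK and just missed the threshold (difference -1.04, adjusted p = 0.0512 in limma). Fcgr3, a low-affinity receptor for IgG, read 321, 151 and 129 with O(5R)SK and 255, 198 and 149.9 with O(WT)SK (limma difference -0.96, SE 0.19, adjusted p = 0.0484). For these 3, both day 7 arrays lay below both day 3 arrays, which holds for 26.2% of all genes.

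The other Fc receptor genes, Fcgr1 and Fcgr2b, had positive differences and did not pass. Fcgr1, the high-affinity receptor for IgG, was dim at 27.7, 30.2 and 41.7 with O(5R)SK and 42.8, 45.6 and 61.3 with O(WT)SK (difference 0.40, adjusted p = 0.0684 in limma), and the mean of its 2 probe sets gave -0.018. Fcgr2b, the inhibitory receptor for IgG, read 107, 146 and 185 with O(5R)SK and 129, 132 and 116 with O(WT)SK (difference 0.29, adjusted p = 0.421). Days 3 and 7 overlapped in both. Of 14 further genes of Fc receptor and ITAM signalling, 8 were tested and 0 passed in either direction, with a median of -0.082; the widest were the adaptor gene Blnk (-0.84), the neonatal Fc receptor gene Fcgrt (0.62) and the phosphatase gene Inpp5d (-0.53).

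Of the 3 oxidase genes, 1 fell, where 3.68% of all tested genes did. Cybb, which encodes the catalytic subunit gp91phox, read 253, 102 and 67.8 with O(5R)SK and 319.9, 107 and 60.2 with O(WT)SK (limma difference -1.91, SE 0.14, adjusted p = 0.00991). Its level on day 7 was 26.6% of that on day 3, and both of its probe sets above the filter were lower. Ncf4, which encodes the regulatory subunit p40phox, read 86.9, 57.6 and 47.2 with O(5R)SK and 124, 47.3 and 12.5 with O(WT)SK (difference -1.50, adjusted p = 0.0818 in limma). Rac2, the blood cell GTPase of the complex, read 80.8, 52.1 and 45.7 with O(5R)SK and 107, 52.3 and 64.7 with O(WT)SK (difference -0.63, adjusted p = 0.0581 in limma). In O(WT)SK alone the change was -2.30 for Ncf4 and -2.14 for Cybb, and in O(5R)SK alone it was -0.70 for Ncf4 and -1.68 for Cybb. The O(WT)SK day 7 value of Ncf4, 12.5, lies under the filter intensity, so that the size of its change depends on the pseudocount. With a pseudocount of 64 the fitted difference of Ncf4 over both combinations was -0.87. Ncf4 and Rac2 did not pass. Their day 7 values lay below their day 3 values on all arrays, which holds for 26.2% of all genes. Of 4 further oxidase genes tested 0 passed, with adjusted p-values of 0.128 and above in limma. Cyba, the membrane partner of Cybb that many cells make, had a difference of -0.019, the widely used GTPase gene Rac1 -0.047, Ncf1, which encodes p47phox, -0.43, and the proton channel gene Hvcn1 0.29.

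Of the lysosomal and antimicrobial effectors, 3 of 4 fell, where 3.68% of all tested genes did. Lyz2, the lysozyme gene of myeloid cells, read 5824, 3008 and 1874 with O(5R)SK and 6294, 3301 and 2172 with O(WT)SK (limma difference -1.58, SE 0.096, adjusted p = 0.00777). Mpeg1, which encodes the pore-forming protein perforin-2, read 709, 313 and 256 with O(5R)SK and 678, 305 and 224 with O(WT)SK (limma difference -1.47, SE 0.1, adjusted p = 0.00848). Ctss, the cathepsin of antigen-presenting cells, read 1313, 714 and 668 with O(5R)SK and 1444, 850.2 and 797 with O(WT)SK (limma difference -0.90, SE 0.098, adjusted p = 0.017). In all 3 the step to day 5 was the larger part of the change.

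Ctsc, the dipeptidyl peptidase that activates granule proteases and that many cell types make, was the exception and read 6751, 7833 and 8735 with O(5R)SK and 6633, 9034 and 10935 with O(WT)SK (difference 0.55, SE 0.12, adjusted p = 0.0648 in limma). It was higher at each step in both combinations and on all 3 of its probe sets, and passed as higher under 5 of the alternatives. Of 15 general lysosome genes, which most cells use, 0 passed in either direction, with 0.27 for Glb1, 0.26 for Ctsa and 0.21 for Lipa as the largest differences and a median of 0.083.

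Among the cytoskeletal genes and adaptors, Lcp1, which encodes the actin-bundling protein L-plastin, read 214, 138 and 88 with O(5R)SK and 182, 124 and 98.4 with O(WT)SK and fell (limma difference -0.97, SE 0.13, adjusted p = 0.0229). Coro1a, an actin regulator of leukocytes, read 92.7, 58.3 and 68 with O(5R)SK and 141, 91.7 and 42.2 with O(WT)SK (difference -0.90, adjusted p = 0.131 in limma). Aif1, which encodes the macrophage stain IBA1, was dim at 56.2, 36.4 and 34 with O(5R)SK and 56.1, 51.6 and 22.3 with O(WT)SK (difference -0.72, adjusted p = 0.0935). Neither passed. Both day 7 arrays lay below both day 3 arrays for each, as they did for 26.2% of all genes.

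The 4 untested members were dim. Spi1 read 48.5, 46 and 47.1 with O(5R)SK and 38.2, 2.36 and 41.1 with O(WT)SK, above the filter intensity on every array but that of O(WT)SK on day 5, and its mean missed the filter through that 1 value. Hcls1 read 7.54, 12.6 and 3.08 with O(5R)SK and 4.35, 3.81 and 2.73 with O(WT)SK, and Lcp2 and Dock2 stayed under 50 on every array. Lcp2 read 18.2, 31.2 and 32.4 with O(5R)SK and 33, 34.8 and 40.3 with O(WT)SK. Dock2 read 7.18, 20.5 and 21.4 with O(5R)SK and 43.9, 30.5 and 48.5 with O(WT)SK, lower with O(5R)SK on each day.

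The promoters were searched for the core letters of known PU.1 sites. A promoter, here 250 bases before to 50 bases after the gene start (RefSeq, GRCm38.p6), was found for 30 of the 42 genes, and where a gene has several starts the most upstream one was read. The letters GAGGAA, the core that PU.1 prefers, or TTCCTC on the other strand, occur in 21 of these 30 promoters, or 70%, and in 12 of the 16 of genes that fell, or 75%, against 28.3% of 27025 genes. The longer GAGGAAGT, which contains the core, or ACTTCCTC, occurs in 4 of 30, or 13.3%, and in 2 of the 16, or 12.5%, against 3.25%. The 16 are part of the 30, so the shares of these 2 sets cannot differ freely. A link between match and fall was not tested. A match is a run of letters, not a bound site. The promoters of the 4 genes with the largest falls among those with a promoter are given next to that of Csf1, the growth factor gene, 5′ to 3′ along the gene, with each GAGGAA or TTCCTC in capitals and the gene start after 250 bases. They lie at chr1:120504975-120505274, minus strand (Marco), chr6:123261857-123262156, plus strand (Clec4d), chr7:43407989-43408288, plus strand (Siglecg), chrX:9469275-9469574, minus strand (Cybb) and chr3:107760420-107760719, minus strand (Csf1).
Marco: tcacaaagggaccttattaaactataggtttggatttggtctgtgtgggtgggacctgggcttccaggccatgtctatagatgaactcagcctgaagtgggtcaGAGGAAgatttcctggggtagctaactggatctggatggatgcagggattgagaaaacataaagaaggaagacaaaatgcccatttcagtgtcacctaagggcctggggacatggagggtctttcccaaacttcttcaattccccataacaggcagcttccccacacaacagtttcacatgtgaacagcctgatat
Clec4d: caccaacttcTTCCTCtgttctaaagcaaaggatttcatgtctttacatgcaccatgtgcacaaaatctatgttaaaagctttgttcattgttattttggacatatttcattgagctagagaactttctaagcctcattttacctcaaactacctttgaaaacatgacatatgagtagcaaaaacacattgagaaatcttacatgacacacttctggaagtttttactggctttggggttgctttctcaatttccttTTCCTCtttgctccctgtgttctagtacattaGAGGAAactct
Siglecg: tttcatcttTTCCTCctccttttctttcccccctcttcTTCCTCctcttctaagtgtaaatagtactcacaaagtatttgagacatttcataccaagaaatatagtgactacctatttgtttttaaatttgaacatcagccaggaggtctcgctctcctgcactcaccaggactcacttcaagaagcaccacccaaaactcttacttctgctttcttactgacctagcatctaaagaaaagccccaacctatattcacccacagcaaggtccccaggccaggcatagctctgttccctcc
Cybb: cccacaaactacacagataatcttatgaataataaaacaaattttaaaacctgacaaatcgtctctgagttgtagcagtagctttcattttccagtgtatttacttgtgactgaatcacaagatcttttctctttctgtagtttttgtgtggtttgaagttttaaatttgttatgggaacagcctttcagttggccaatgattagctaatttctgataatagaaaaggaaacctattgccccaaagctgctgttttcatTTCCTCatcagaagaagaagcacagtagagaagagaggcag
Csf1: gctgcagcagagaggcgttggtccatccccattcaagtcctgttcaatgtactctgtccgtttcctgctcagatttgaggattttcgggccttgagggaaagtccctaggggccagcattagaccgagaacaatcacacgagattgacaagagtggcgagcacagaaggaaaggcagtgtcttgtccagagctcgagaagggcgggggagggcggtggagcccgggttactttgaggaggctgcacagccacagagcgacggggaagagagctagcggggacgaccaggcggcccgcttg
Marco and Cybb hold 1 match each, Siglecg 2, Clec4d 3 and Csf1 0.

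By single steps, much of the difference was there by day 5. The median difference of the 38 members was -0.68 from day 3 to day 5, beside 0.012 over all genes, and -0.34 from day 5 to day 7, beside 0.0087. On day 5, 33 of 38 members read lower than on day 3 in both combinations, for which the share over all genes was not counted. Values were lower at each step in both combinations for 23 of 38 members, against 12.9% of all genes. For the 21 genes that fell, the day 5 step made up between 45.3% (Csf1) and 107% (C1qc) of the whole difference, with a median of 69.0%. Csf1, Clec7a and Siglecg had under 50% of it by day 5. In limma the single steps gave 0 calls among members and 0% of all genes from day 3 to day 5, and likewise 0% from day 5 to day 7. At an unadjusted p under 0.05 stood 27 of 38 members for the step to day 5 (2041 of all genes) and 13 for the step to day 7 (1745 of all genes). With a trended, robust prior limma called 14 members lower for the step to day 5, where it called 5.11% of all genes in either direction, and 5 for the step to day 7, where it called 2.91%, namely Clec4d, Csf1, Lyz2, Siglecg and Tyrobp.

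No member was called different between the combinations. In limma 0 members passed for O(5R)SK against O(WT)SK, as did 0% of all genes, and 7 members had an unadjusted p under 0.05 (1180 of all genes). The median difference of the 38 was -0.12, beside -0.012 over all genes, and 29 of 38 were negative, beside 6714 of 12622 over all genes. By day it was -0.054, -0.19 and -0.14 on days 3, 5 and 7. Lower values with O(5R)SK on all 3 days were found for 11 of 38, among them the 3 C1q genes, Lyz2, Ctss and Cd68, against 17.9% of all genes, and higher values on all 3 days for 3 of 38, Csf1, Laptm5 and Mpeg1, against 15.9%. The difference of slopes over the days was called in limma for 0 members (0% of all genes), with 6 members at an unadjusted p under 0.05 and slope differences per 4 days from -0.88 for Msr1 to 1.60 for Ncf4.

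With the settings used, Marco had the widest difference between combinations. It read -0.60, -1.71 and -1.01 on days 3, 5 and 7 as O(5R)SK minus O(WT)SK, a mean of -1.11 (SE 0.23, adjusted p = 0.366 in limma). Trem2 (-0.68), Msr1 (-0.53) and C1qc (-0.45) followed on the lower side. C1qc read -0.34, -0.59 and -0.42 by day, while Msr1 read 0.0081, -0.72 and -0.87. On the higher side Laptm5 had the largest value, 0.69, 0.66 and 1.01 by day, with a mean of 0.79 (SE 0.11, adjusted p = 0.268 in limma). It was the 1 member called with a stricter filter or with a trended, robust prior, and over the alternatives that keep all arrays its adjusted p ran from 0.00754 to 0.543. Its second brightest probe set read 287, 297 and 362 with O(5R)SK and 215, 341 and 401 with O(WT)SK, lower with O(5R)SK on days 5 and 7, and the mean of its probe sets gave 0.33. Ncf4 (0.31), Fcgr2b (0.17) and Csf1 (0.15) came next, and Ncf4 was lower with O(5R)SK on day 3 and higher on day 7.

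**Figure D4:**
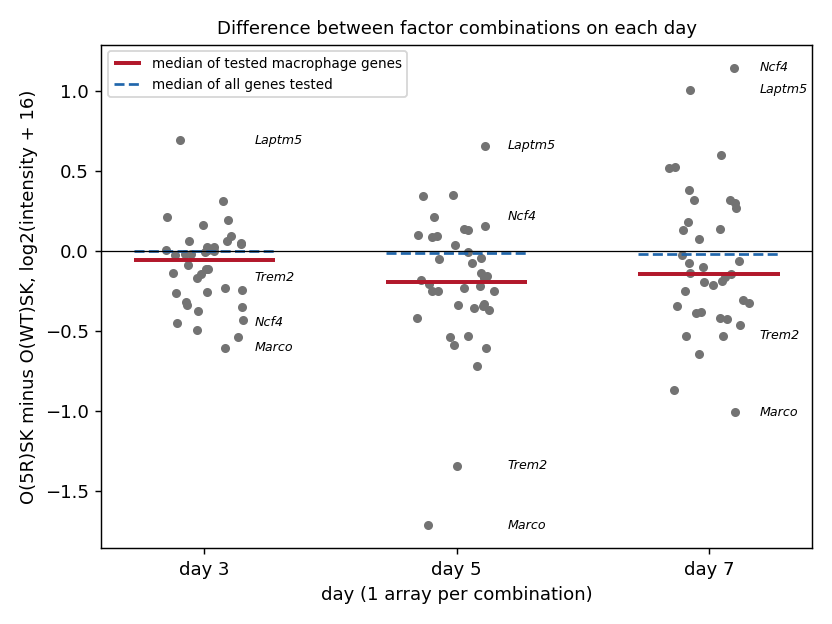
O(5R)SK minus O(WT)SK in log2(intensity + 16) on each day, with 1 point for each of the 38 tested genes, their median as a solid line and the median of all genes tested as a dashed line. The medians of the macrophage genes are -0.054, -0.19 and -0.14 on days 3, 5 and 7, and the spread of single genes is wider than these shifts.

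Of further macrophage and leukocyte genes most were lower on day 7 too. Of 60 listed, 52 are matched on the array and 31 were tested, of which 24 were negative, 6 fell and 0 rose, with a median of -0.56. Over all genes tested, 5879 of 12622 were negative, 3.68% fell and 6.52% rose. Itgb2, the beta chain of leukocyte integrins, read 193, 79.3 and 70.8 with O(5R)SK and 178, 81.1 and 48.8 with O(WT)SK (limma difference -1.43, SE 0.14, adjusted p = 0.0145). Cd48, a leukocyte adhesion molecule, fell by 0.91 (adjusted p = 0.0463 in limma). Tlr2, a receptor for bacterial lipoprotein that other cells also make, read 122, 107 and 234 with O(5R)SK and 88.9, 157 and 275 with O(WT)SK and did not pass (difference 1.16, adjusted p = 0.0505). The 21 that were too dim include Itgam, Itgax and Cd163, which encode defining integrins and a scavenger receptor of macrophages, and Irf8, a transcription factor of the lineage. The arrays thus show surface, complement and lysozyme transcripts of genes that mark or serve macrophages, while these 4 defining genes had means under the filter. Which cells made the transcripts was not tested.

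Markers of other cell types were mostly too dim to test. Of the genes on the array, 6 of 10 for T and NK cells, 3 of 4 for B cells, 7 of 8 for neutrophils, 7 of 7 for mast cells and 3 of 4 for dendritic cells did not pass the filter, nor did 3 of 5 for endothelial cells. Over the 6 arrays their summed intensity was 420.4 to 783 for T and NK cells, 64.3 to 129 for B cells, 151 to 207 for neutrophils, 63.1 to 194 for mast cells, 73.2 to 181 for dendritic cells and 520.1 to 806 for endothelial cells, and 0 genes of these lists passed in limma from day 3 to day 7. The widest differences were those of Cd3g (2.25, adjusted p = 0.0891) and Prf1 (0.54), both of the T and NK cell list, and their part in the result was not tested. Of the B cell list, Cd79a, Cd79b and Ms4a1 were under the filter, and Pax5, a transcription factor gene, passed it and read 27.5, 45.8 and 36 with O(5R)SK and 102, 56.7 and 71.1 with O(WT)SK (difference -0.092, adjusted p = 0.859 in limma).

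**Figure D5:**
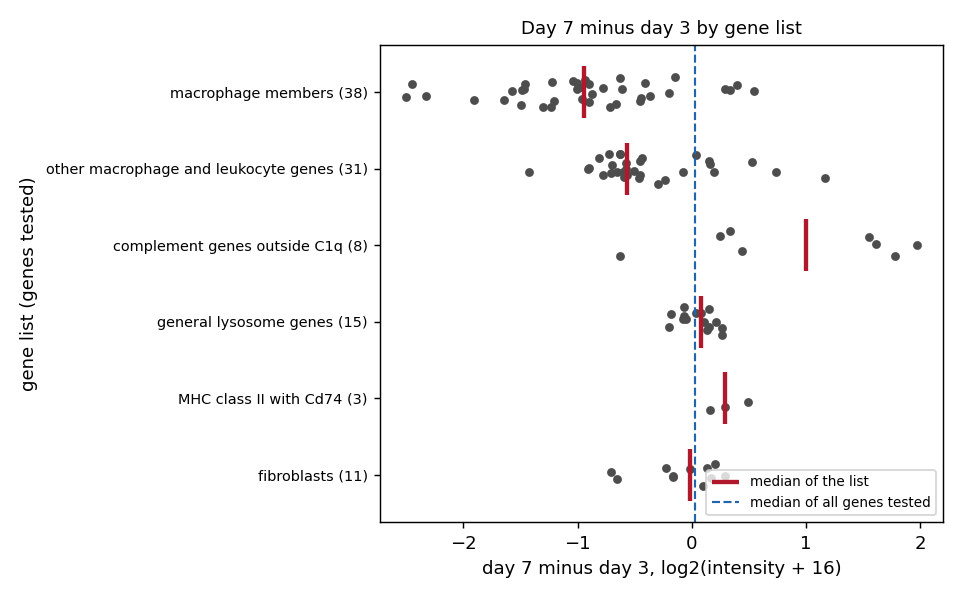
Day 7 minus day 3 in log2(intensity + 16) for the tested genes of 6 lists, 1 point a gene, with the median of each list as a bar and that of all genes tested as a dashed line. The medians are -0.95 for the 38 macrophage members, -0.56 for other macrophage and leukocyte genes, 0.99 for complement genes outside C1q, 0.083 for general lysosome genes, 0.29 for MHC class II genes and -0.019 for fibroblast genes.

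Some of the larger falls reached 2-fold in both combinations, and others did not. Ncf4, at -1.50 in the fit, changed by -0.70 in O(5R)SK and by -2.30 in O(WT)SK. At least 2-fold lower values on day 7 than on day 3 in both combinations were found for 11 of 38 members, Cd52, Cd84, Clec4d, Clec4n, Csf1, Cybb, Lyz2, Marco, Mpeg1, Siglecg and Tyrobp, against 0.784% of all genes. Across the 38 members the change in O(5R)SK correlated with that in O(WT)SK with Pearson's r = 0.78 and Spearman's rho = 0.727, against r = 0.607 across all genes tested. The 2 changes come from separate arrays, the genes share arrays and are not independent, and the value is a description.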

How the data were processed

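The authors deposited linear intensities, 1 for each probe set of an array. The submitters' processing notes name affy without its version, and how probes were summarised and background removed is not given in the sources used here. Each array has a 2% trimmed mean of 500 while other quantiles differ, so arrays were scaled but not quantile normalized. Of 45101 probe sets, 34958 name 1 gene in the platform annotation, 932 several and 9211 none, and 64 controls were left out. Of those naming 1 gene, 34754 were found in RefSeq (GRCm38.p6), which changed 0 symbols. Columns of values that belong to no sample numbered 0.

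Per gene, the probe set with the highest mean was used. Values were taken as log2(intensity + 16), and differences are on that scale, which understates those of dim genes. Genes above the 40th percentile of probe set means were tested with limma 3.58.1 (lmFit and eBayes, R 4.3.3), with Benjamini-Hochberg adjustment over all of them and a threshold of 0.05. The fit has combination and day (3 levels) as terms, 4 coefficients, 2 residual degrees of freedom and 2.6 prior degrees of freedom. Differences of slopes came from combination by day as a number, per 4 days. Single days and combinations have 1 array a side and no test. The number of arrays limits the precision. The fit was tested on simulated data. Figures were drawn with matplotlib 3.10.9 and pandas 2.3.3 under Python 3.11.15.

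The members, gene lists and tests were chosen with earlier results of these data known. All members may be named, and of each other list the 3 genes with the largest difference from day 3 to day 7 and, for cell types, defining genes near the floor. For the combinations, they are the 4 members with the largest positive and the 4 with the largest negative difference. Serping1, Cd46 and Cyba were named after their values were seen. Listed symbols not matched on the array were not analysed here. Alternatives were a pseudocount of 64, no filter, a stricter filter (60th percentile), quantile normalization, a common median, the mean of probe sets, a trended, robust prior, and each array left out in turn.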

Additional observations from a re-analysis of the deposited data

How the results depend on the processing

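From day 3 to day 7, 21 members passed with the settings used. Over the alternatives that keep all arrays, 18 to 24 passed, except without the filter on low values, where 0 of 42 members and 0 of all genes did. Without that filter, 29 members and 3648 of 18193 genes stood at an unadjusted p under 0.05 in limma. Leaving out single arrays gave 0 to 21. Counts over all genes were 1287 with the settings used, 1971 with a pseudocount of 64, 2202 with the stricter filter, 2846 with the trended, robust prior and 881 with the mean of probe sets. With a pseudocount of 64, the stricter filter, which tests 25 members, and the trended, robust prior, the 0 member calls from day 3 to day 5 became 12, 13 and 14 (1.69%, 4.23% and 5.11% of all genes). Those from day 5 to day 7 became 2, 5 and 5 (0.744%, 1.7% and 2.91% of all genes), and those between combinations 0, 1 and 1 (0.0158%, 0.273% and 0.65% of all genes).

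The median of the members from day 3 to day 7, -0.95, was -0.73 with a pseudocount of 64, -0.73 with the mean of probe sets, -1.05 after quantile normalization and -1.05 with a common median, which itself moved the median of all genes from 0.029 to -0.072, and -1.05 to -0.82 with single arrays left out. From day 3 to day 5 it was -0.53 with a pseudocount of 64, -0.55 with the mean of probe sets and -0.70 to -0.56 with single arrays left out. From day 5 to day 7 it was -0.22 with a pseudocount of 64 and -0.34 to -0.17 with single arrays left out. Direction turned for members that had not passed. With the mean of probe sets Cx3cr1 read 0.023 and Fcgr1 -0.018 from day 3 to day 7, and Csf1 -0.10 between combinations. With single arrays left out, Cd74 ran from -0.92 to 0.0071 and Fcgr2b from -0.037 to 0.62 from day 3 to day 7, and between combinations Fcgr2b ran from -0.054 to 0.37 and Ncf4 from -0.12 to 0.68. The causes were not tested. Combination and day are terms of the fit, so days were compared within combination and combinations within day. With 1 array for each combination and day, there were no replicates to pair.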

Other observations

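Cd74 and the MHC class II genes, which antigen-presenting cells use together, gave no common course. Of 6 listed class II genes 5 are matched on the array and 3 were tested, with 0 past the threshold in limma. H2-Aa read 31.5, 58.2 and 69.1 with O(5R)SK and 44.9, 55 and 51 with O(WT)SK over days 3, 5 and 7 and had a difference of 0.49 from day 3 to day 7, against -0.46 for Cd74. H2-DMa (0.29) and H2-Ab1 (0.16) were positive as well, and all lie at intensities under 200.

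Of the 12 members with several probe sets above the filter, 11 had differences of one sign from day 3 to day 7, and Csf1r was the exception. Their sizes still differed, for example from -1.01 to -0.14 for C1qb and from -0.97 to -0.29 for Lcp1.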
